A study of Mus musculus with 8 samples.

Results

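The core circadian clock genes were examined in cultures of mouse primary calvarial osteoblasts treated with parathyroid hormone (PTH) or vehicle. The set held 10 genes, chosen by symbol as the known components of the transcriptional loop, out of 47706 genes listed in the count table: Arntl and Clock, Per1, Per2 and Per3, Cry1 and Cry2, Nr1d1 and Nr1d2, and Dbp. Each symbol was found once, under an identifier of the transcript assembly. RNA came from 4 samples given PTH for 24 hours and 4 given vehicle, and the labels give day 7 of differentiation. The study's methods describe serum starvation of the cultures on day 7, followed by the 24 hours of treatment. Per the study's methods, calvarial osteoblasts were isolated from newborn mice by serial collagenase digestion. The labels give no genotype for these samples and call the differentiation adipogenic, whereas the methods describe osteogenic medium. Nothing in the labels says that samples of one treatment came from separate animals or cultures, so the p-values measure the spread between these samples. The samples are called cultures below for short.

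In the mammalian clock, BMAL1 (encoded by Arntl) and CLOCK pair on E-box sequences and activate the Per and Cry genes, whose protein products return to the nucleus and repress that pair. BMAL1 and CLOCK also activate Nr1d1, Nr1d2 and Dbp. The REV-ERB receptors encoded by Nr1d1 and Nr1d2 repress Arntl through elements that they share with ROR receptors, and DBP activates genes with D-box sequences. Bone cells hold such a clock, and cAMP signaling, which the PTH receptor uses, is known to induce Per1 in many cells.

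After 24 hours of PTH, the members had moved apart rather than together. Nr1d1 and Dbp fell to about 0.33 and 0.32 times their vehicle level, while Arntl, Cry1 and Per1 rose by 1.89-fold, 1.78-fold and 1.75-fold. Cry2 rose by 1.30-fold, Per3 and Per2 fell to 0.689 and 0.791 times, and Clock and Nr1d2 did not pass the test. In all, 4 members rose, 4 fell and 2 did not pass an adjusted p of 0.05 in edgeR's quasi-likelihood test. Among all 16736 genes tested, 45.8% passed it, 23.3% with higher and 22.5% with lower counts after PTH, so that a call alone was common in these cultures. In 8 of the 10 members the ranges of PTH and vehicle did not overlap, which held for 43.0% of all genes tested. The median absolute log2 fold change was 0.67 for the members and 0.35 for all genes tested. The members were chosen with earlier results of these data known, so these contrasts with all genes are descriptions only. With bulk RNA, a change in the number of cells that express a gene and a change in RNA per cell cannot be told apart.

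**Figure D1:**
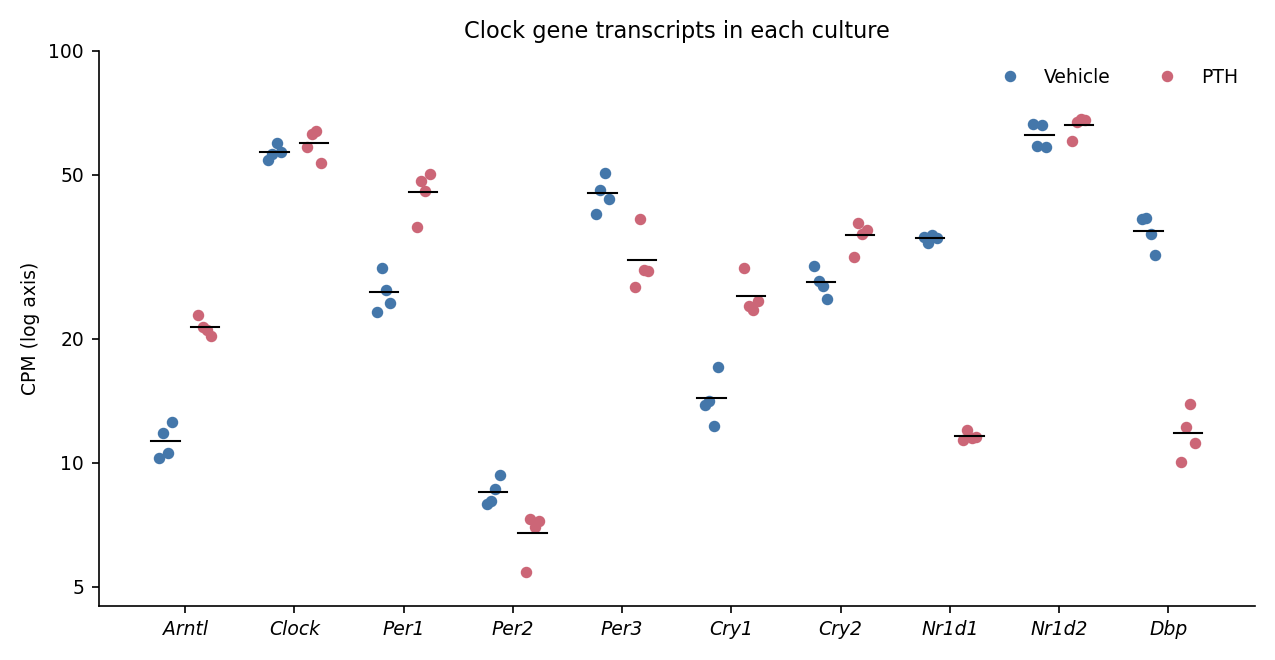
Level of the 10 core clock genes in each of the 4 vehicle and 4 PTH cultures, in CPM (counts relative to TMM-normalized library size; log axis), with bars at the treatment means. Points of PTH and vehicle are separate for all genes but Clock and Nr1d2, and the widest gaps are those of Nr1d1 and Dbp.

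The libraries held 33605610 to 56090654 counts, and the lowest count of any member in any library was 243, for Per2. All 10 osteoblast markers examined were detected, with a summed level of 92866 to 105322 CPM in vehicle and 86867 to 125497 CPM in PTH cultures (none higher, 2 lower). The 8 adipocyte markers summed to 34.8 to 55.5 CPM over both treatments (none higher, 1 lower of 7 tested). Summed macrophage markers were 1001 to 1624 CPM in vehicle and 1573 to 2031 CPM in PTH cultures (3 of 10 higher, none lower), and 5 chondrocyte markers summed to 411 to 468 and 481 to 611 CPM (2 higher, none lower). Of 6 proliferation markers 1 was higher and 2 lower, of 4 endothelial markers tested 1 was higher and 1 lower, and of 2 muscle markers tested 1 was lower. No marker on these lists was at 0 in every library. The part of these markers in the member values was not tested.

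Sequence before the transcription start is shown for the member with the largest rise (Arntl), that with the largest fall (Dbp) and the REV-ERB paralogs, which differed in response. Per3 and Per1 are added because their windows hold clock motifs, a choice made after the matches were seen. Each line gives the 250 bases before the RefSeq start site in the mouse build GRCm38.p6, 5′ to 3′ on the strand of the gene, with capitals for matches to the motifs searched. Intervals and strands are chr7:113207215-113207464 (+) for Arntl, chr7:45704997-45705246 (+) for Dbp, chr11:98775378-98775627 (−) for Nr1d1, chr14:18239107-18239356 (−) for Nr1d2, chr4:151044666-151044915 (−) for Per3 and chr11:69098699-69098948 (+) for Per1.
Arntl: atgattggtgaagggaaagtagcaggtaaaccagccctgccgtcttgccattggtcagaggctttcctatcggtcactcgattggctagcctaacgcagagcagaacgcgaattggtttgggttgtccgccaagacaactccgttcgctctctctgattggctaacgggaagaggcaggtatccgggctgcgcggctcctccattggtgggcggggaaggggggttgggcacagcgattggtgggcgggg
Dbp: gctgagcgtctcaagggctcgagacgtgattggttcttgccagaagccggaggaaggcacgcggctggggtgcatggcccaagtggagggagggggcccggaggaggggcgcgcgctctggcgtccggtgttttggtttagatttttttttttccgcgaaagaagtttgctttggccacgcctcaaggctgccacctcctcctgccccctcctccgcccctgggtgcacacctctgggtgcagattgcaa
Nr1d1: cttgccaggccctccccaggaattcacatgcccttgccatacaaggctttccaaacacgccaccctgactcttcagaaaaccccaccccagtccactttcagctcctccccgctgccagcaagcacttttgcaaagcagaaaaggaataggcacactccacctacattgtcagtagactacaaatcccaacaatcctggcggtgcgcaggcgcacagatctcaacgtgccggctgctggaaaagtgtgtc
Nr1d2: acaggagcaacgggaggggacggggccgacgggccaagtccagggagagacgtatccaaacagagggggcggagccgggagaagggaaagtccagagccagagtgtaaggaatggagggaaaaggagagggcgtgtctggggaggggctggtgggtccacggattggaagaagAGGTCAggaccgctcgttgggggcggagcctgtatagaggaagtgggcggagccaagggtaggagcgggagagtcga
Per3: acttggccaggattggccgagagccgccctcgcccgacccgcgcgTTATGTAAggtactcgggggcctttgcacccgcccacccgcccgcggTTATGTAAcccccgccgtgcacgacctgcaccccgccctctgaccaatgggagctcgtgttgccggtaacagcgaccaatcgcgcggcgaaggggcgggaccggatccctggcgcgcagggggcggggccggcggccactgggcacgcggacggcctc
Per1: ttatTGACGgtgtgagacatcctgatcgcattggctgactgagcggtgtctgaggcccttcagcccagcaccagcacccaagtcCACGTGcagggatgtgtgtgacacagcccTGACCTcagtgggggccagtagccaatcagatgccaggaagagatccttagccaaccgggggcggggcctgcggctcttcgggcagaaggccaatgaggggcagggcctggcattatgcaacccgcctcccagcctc

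The motifs were searched on both strands in windows of 300 bases, from 250 before to 50 after each start site. They were the E-box CACGTG, the cAMP response element TGACGTCA and its shorter form TGACG, the D-box as TTATGTAA or TTACGTAA, and AGGTCA, the core letters bound by ROR and REV-ERB receptors. The short form TGACG also lies within the full element. The windows of 9 members were searched, 13 in all. The shares of all windows given below are per window, whereas a member with several windows had more chances of a match. Per2 had no window in the promoter set used, so its sequence was not searched. Per3, which DBP is known to activate, carried the D-box TTATGTAA at 2 places, with first bases 205 and 158 bases before the start site, while 1.06% of all 32851 windows held a D-box. The E-box was found in Per1 (at −166, the first base's distance from the start) and Cry1 (at −60), against 7.15% of all windows. No member held the full cAMP element, which 1.79% of windows did. The short form stood in Per1 (at −246 and, in a second window, at −132), Cry1 (at −8) and Cry2 (at −209), against 20.8% of all windows. AGGTCA was found in Nr1d2 (at −77), Per1 (at −137), Clock (at −119) and Arntl, where it lay 31 bases past one start site, and in 16.3% of all windows. The Dbp and Nr1d1 windows held no match, which says only that these letters are not in those 300 bases.

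Of the activating pair, Arntl rose and Clock did not pass the test. Arntl (chr7:113207465-113314126 in GRCm38, + strand) was measured at 10.3, 11.8, 10.5 and 12.6 CPM in the vehicle cultures and at 22.8, 21.4, 21.0 and 20.3 CPM in the PTH cultures. Every PTH culture was above every vehicle culture. Mean levels were 11.3 ± 1.08 and 21.4 ± 1.06 CPM (SD, n = 4 each), a log2 fold change of 0.92 (SE 0.0901, edgeR adjusted p = 5.32e-06). Clock (chr5:76209868-76304792, − strand), the partner of BMAL1, stood at 54.3, 56.1, 59.8 and 56.9 CPM in vehicle and 58.5, 62.8, 63.8 and 53.5 CPM in PTH cultures. The ranges overlapped, since the lowest value of all was from a PTH culture and the next 3 were from vehicle. The log2 fold change of Clock was 0.07 with a 95% interval of −0.08 to 0.22 (edgeR adjusted p = 0.442). The Arntl to Clock ratio of CPM rose from 0.176 to 0.221 in vehicle to 0.329 to 0.389 in PTH cultures, a difference of 0.85 on the log2 scale (exact permutation p = 0.0286, adjusted p = 0.0357 over 5 ratios).

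The period genes, whose proteins form the repressor complex with the cryptochromes, split in direction. Per1 (chr11:69095217-69109960, + strand), the member of the family known for rapid induction by cAMP, was at 23.2, 29.8, 26.3 and 24.5 CPM in vehicle and at 37.2, 48.4, 45.7 and 50.3 CPM in PTH cultures. All 4 PTH values lay above the highest vehicle value. The mean rose from 25.9 ± 2.85 to 45.4 ± 5.74 CPM (log2 fold change 0.81, SE 0.106, edgeR adjusted p = 6.23e-05). Per3 (chr4:151003652-151044665, − strand) was at 40.2, 46.0, 50.4 and 43.6 CPM in vehicle and at 26.7, 39.1, 29.4 and 29.2 CPM in PTH cultures. The second PTH culture came within about 1 CPM of the lowest vehicle culture, and the other 3 were well below it. Per3 fell by 0.54 on the log2 scale (SE 0.115, edgeR adjusted p = 0.00229).

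Per2 (chr1:91415982-91459324, − strand), the period gene at the lowest level per length, had vehicle values of 7.94, 8.08, 8.64 and 9.35 CPM and PTH values of 5.44, 7.31, 6.97 and 7.23 CPM. The treatments did not overlap, but the gap between them was less than 1 CPM and the first PTH culture stood below the rest. Per2 fell by 0.34 on the log2 scale (SE 0.125, edgeR adjusted p = 0.0430). That call was lost in 8 of 15 other settings, among them the removal of PTH replicate 1 (log2 fold change −0.25, adjusted p = 0.0993) or of Vehicle replicate 4 (−0.29, adjusted p = 0.104). The Per1 to Per2 ratio was 2.61 to 3.68 in vehicle and 6.56 to 6.95 in PTH cultures, a 2.22-fold difference (exact permutation p = 0.0286, adjusted p = 0.0357 over 5 ratios). For 4 cultures against 4, 0.0286 is the smallest two-sided exact p possible. Per1 was higher and Per2 lower in every PTH culture, so their ratio had to separate. Its p therefore adds nothing to the values of the single genes.

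Both cryptochromes, repressors of BMAL1 and CLOCK, rose. Cry1 (chr10:85131700-85185064, − strand) was measured at 13.8, 14.1, 12.3 and 17.05 CPM in vehicle and at 29.7, 24.0, 23.4 and 24.7 CPM in PTH cultures. The treatments were separated by more than 6 CPM. Its log2 fold change was 0.83 (SE 0.112, edgeR adjusted p = 8.04e-05), from 14.3 ± 1.99 to 25.5 ± 2.84 CPM. Cry2 (chr2:92403646-92434043, − strand) was at 30.0, 27.7, 26.9 and 25.0 CPM in vehicle and at 31.6, 38.3, 36.0 and 36.7 CPM in PTH cultures. The highest vehicle value and the lowest PTH value, both from replicate 1, were close. The log2 fold change of Cry2 was 0.38 (SE 0.0825, edgeR adjusted p = 0.00255). The fold change was larger for Cry1 than for Cry2, but their ratio overlapped between treatments, at 0.458 to 0.683 in vehicle and 0.628 to 0.938 in PTH cultures, and the difference of 0.45 on the log2 scale did not pass the test (exact permutation p = 0.114, adjusted p = 0.114 over 5 ratios).

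Of the 3 paralog ratios examined, that of the REV-ERB genes moved most. Nr1d1 (chr11:98767932-98775333, − strand), which encodes REV-ERBα, a heme-binding repressor of Arntl, was at 35.2, 34.1, 35.7 and 35.1 CPM in vehicle and at 11.4, 12.01, 11.5 and 11.6 CPM in PTH cultures. Its replicates lay close together, with an SD of 0.641 CPM around 35.0 in vehicle and of 0.282 CPM around 11.6 in PTH cultures. The log2 fold change was −1.59 (SE 0.0675, edgeR adjusted p = 2.63e-09). Nr1d2 (chr14:18204054-18239127, − strand), which encodes REV-ERBβ, was at 66.6, 58.8, 66.0 and 58.4 CPM in vehicle and at 60.5, 67.0, 68.3 and 68.0 CPM in PTH cultures. Its ranges overlapped, and the log2 fold change of 0.08 had a 95% interval of −0.08 to 0.23 (edgeR adjusted p = 0.394). The Nr1d1 to Nr1d2 ratio of CPM was 0.529 to 0.601 in vehicle and 0.168 to 0.188 in PTH cultures, lower by 3.19-fold (exact permutation p = 0.0286, adjusted p = 0.0357 over 5 ratios).

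**Figure D2:**
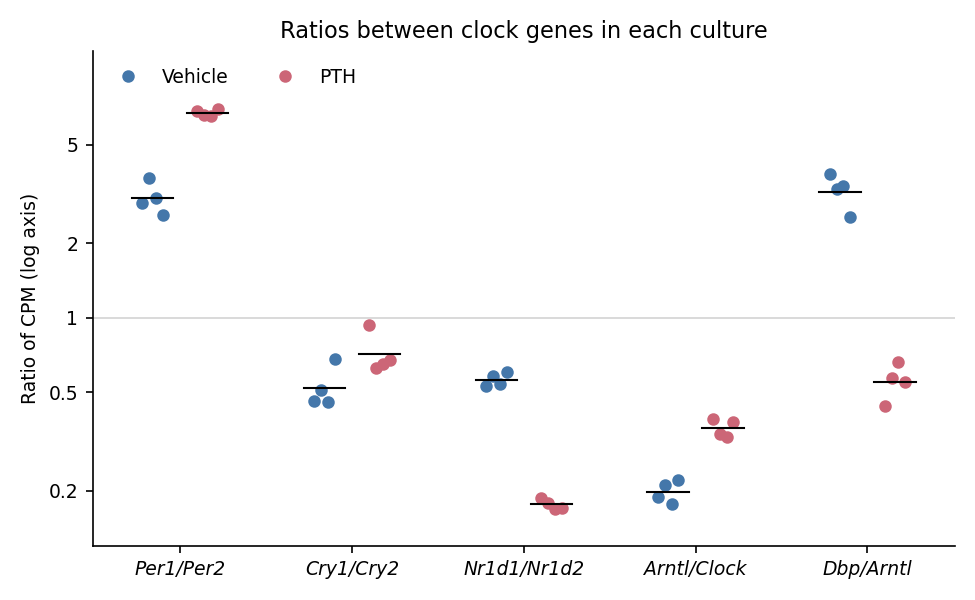
Ratios of CPM between pairs of members in each culture, on a log axis, with 4 vehicle and 4 PTH points per pair and bars at the mean of the log ratios. The treatments overlap only for Cry1 over Cry2, and the largest displacement is that of Dbp over Arntl, from 2.54 to 3.80 in vehicle to 0.442 to 0.660 with PTH.

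Dbp (chr7:45705088-45710203, + strand), an output gene of the clock and an activator through D-boxes, had the largest fall. Its vehicle values were 39.1, 39.3, 35.8 and 32.0 CPM, and its PTH values were 10.1, 12.2, 13.9 and 11.2 CPM. The lowest vehicle culture was more than 2 times the highest PTH culture. Mean levels were 36.6 ± 3.46 and 11.8 ± 1.61 CPM, a log2 fold change of −1.63 (SE 0.109, edgeR adjusted p = 1.58e-07). Dbp and Nr1d1 were the members with an absolute log2 fold change of at least 1, a size reached with an adjusted p under 0.05 by 11.2% of all genes tested. The Dbp to Arntl ratio, which sets an output of the loop against its activator, was 2.54 to 3.80 in vehicle and 0.442 to 0.660 in PTH cultures on the CPM scale, which takes no account of length (log2 difference −2.55, exact permutation p = 0.0286, adjusted p = 0.0357 over 5 ratios). Dbp was lower and Arntl higher in every PTH culture, so the p of this ratio was fixed by the single genes.

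Some members share exon sequence with genes on the opposite strand, and the strand setting of the counting is not given in the sources used here. In GENCODE M21, Nr1d1 shares 263 exon bases (8.55% of its exon length) with Thra, a thyroid hormone receptor gene, which went from 215 ± 16.6 to 178 ± 5.65 CPM (log2 fold change −0.27, edgeR adjusted p = 0.00679). Dbp shares 539 bases (18.0%) with Sphk2, whose log2 fold change was 0.07 (edgeR adjusted p = 0.510). Cry2 shares 295 bases (4.67%) with D930015M05Rik, which had 73 counts over all libraries, and Arntl shares 33 with Gm45355, which had 0. How reads in the shared bases were assigned was not tested.

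Levels can be set side by side between genes only per length. The length used here was that of all annotated exons of a gene, merged. Expressed transcripts can be shorter, so the order and tiers below hold for this length only. In CPM per kilobase of exon, the vehicle cultures formed 3 tiers. The top tier held Dbp (12.2 ± 1.16), Nr1d2 (11.5 ± 0.822) and Nr1d1 (11.4 ± 0.208), whose ranges overlapped one after another. The middle tier held Per3 (4.69), Per1 (4.61), Cry2 (4.33), Cry1 (4.29) and Clock (4.14), again with overlapping neighbors, and Arntl (1.502) and Per2 (1.452) lay lowest. With PTH, Nr1d2 was alone at the top (12.2 ± 0.676 CPM per kilobase), followed by Per1 (8.06) and Cry1 (7.62), whose ranges overlapped, and then Cry2 (5.64). Dbp (3.95) and Nr1d1 (3.77) now lay in a run with Clock (4.35), Per3 (3.23) and Arntl (2.84) in which each range overlapped that of the next gene. Per2 (1.15) was lowest and separate.

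**Figure D3:**
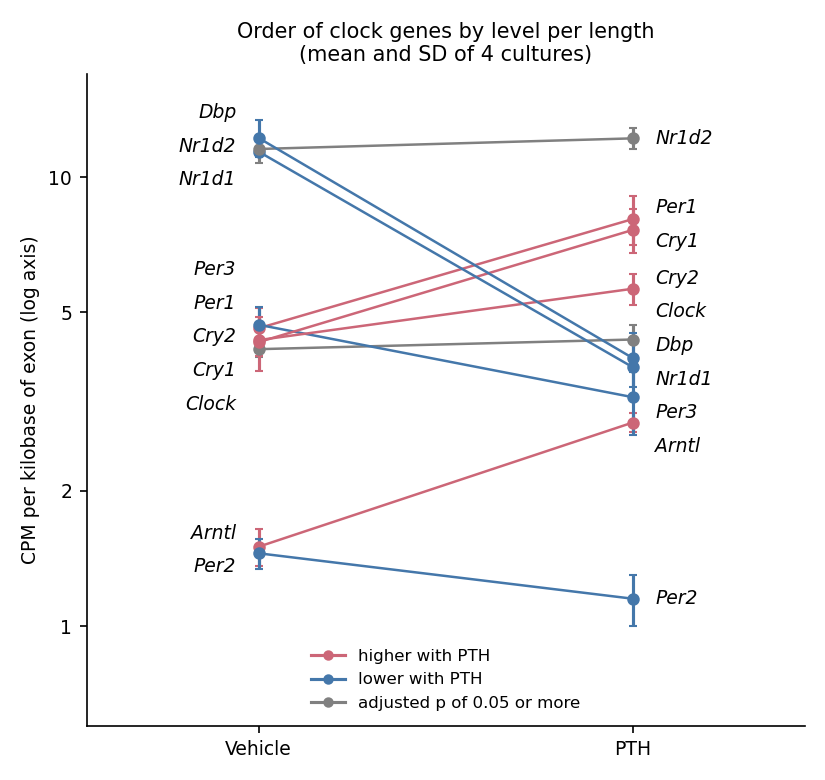
Level of each core clock gene in CPM per kilobase of exon (log axis), as the mean and SD of 4 cultures, in vehicle and PTH cultures. Dbp and Nr1d1 leave the top tier with PTH, from 12.2 and 11.4 to 3.95 and 3.77, while Nr1d2 is at 11.5 and 12.2.

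Around the 10 members, 40 further clock genes were listed and 39 tested. PTH raised 17 and lowered 7, and 15 did not pass the test. The called share was 61.5%, against 45.8% of all genes tested (23.3% higher and 22.5% lower), which is also the background for the smaller lists that follow. Their median log2 fold change was 0.12, against −0.00081 over all genes tested. These lists, too, were chosen with earlier results of these data known. The activators and ROR receptors (3 of 4 tested higher, none lower) included Rorb, with 0 to 14 counts in vehicle and 29 to 41 in PTH libraries, the largest fold change of that list but at a very low level. Npas2, also on that list, was at 8.33 to 9.99 CPM in vehicle and 12.4 to 20.5 CPM in PTH cultures (edgeR adjusted p = 0.00126). Rora, the ROR receptor that competes with REV-ERB on Arntl, was at 42.2 to 46.3 CPM in vehicle and 58.8 to 61.5 CPM in PTH cultures (edgeR adjusted p = 8.28e-05). At the 1 time point measured, Arntl and Rora were higher and Nr1d1 lower in the PTH cultures, while Nr1d2 did not pass the test (edgeR adjusted p = 0.394). Whether these values are linked was not tested.

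All 3 D-box factors other than Dbp passed the test, in both directions. Tef, a PAR bZIP activator related to DBP, was at 110, 116, 112 and 102 CPM in vehicle and 51.8, 57.8, 56.5 and 55.2 CPM in PTH cultures (log2 fold change −0.99, edgeR adjusted p = 1.33e-07). Hlf, the remaining activator, moved the other way, from 6.87 to 10.3 CPM in vehicle to 22.3 to 30.9 CPM in PTH cultures. Nfil3, the repressor that binds the same D-boxes as Dbp, was at 13.7, 13.6, 14.4 and 13.1 CPM in vehicle and at 297, 228, 254 and 253 CPM in PTH cultures, an 18.8-fold rise (edgeR adjusted p = 1.07e-11). Dbp, Tef and Hlf summed to 27.5 ± 1.90 CPM per kilobase in vehicle and 14.7 ± 0.554 with PTH, while Nfil3 went from 6.77 ± 0.254 to 127 ± 14.1 CPM per kilobase. The summed activators were 3.83 to 4.36 times Nfil3 in vehicle cultures, and Nfil3 was 7.60 to 10.04 times the summed activators in PTH cultures, at the level of RNA. This sum was chosen after the values were seen, rests on the merged exon lengths and carries no test.

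The other repressors of the E-box loop also all passed the test. Bhlhe40 (DEC1), which represses the activity of BMAL1 and CLOCK on E-boxes, was at 22.9, 27.9, 27.8 and 33.0 CPM in vehicle and at 298, 237, 247 and 284 CPM in PTH cultures, a 9.55-fold rise (edgeR adjusted p = 5.69e-10). Its paralog Bhlhe41 rose by 0.45 on the log2 scale. Ciart fell, at 47 to 71 counts per vehicle library and 10 to 29 per PTH library (log2 fold change −1.27, edgeR adjusted p = 0.0253).

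**Figure D4:**
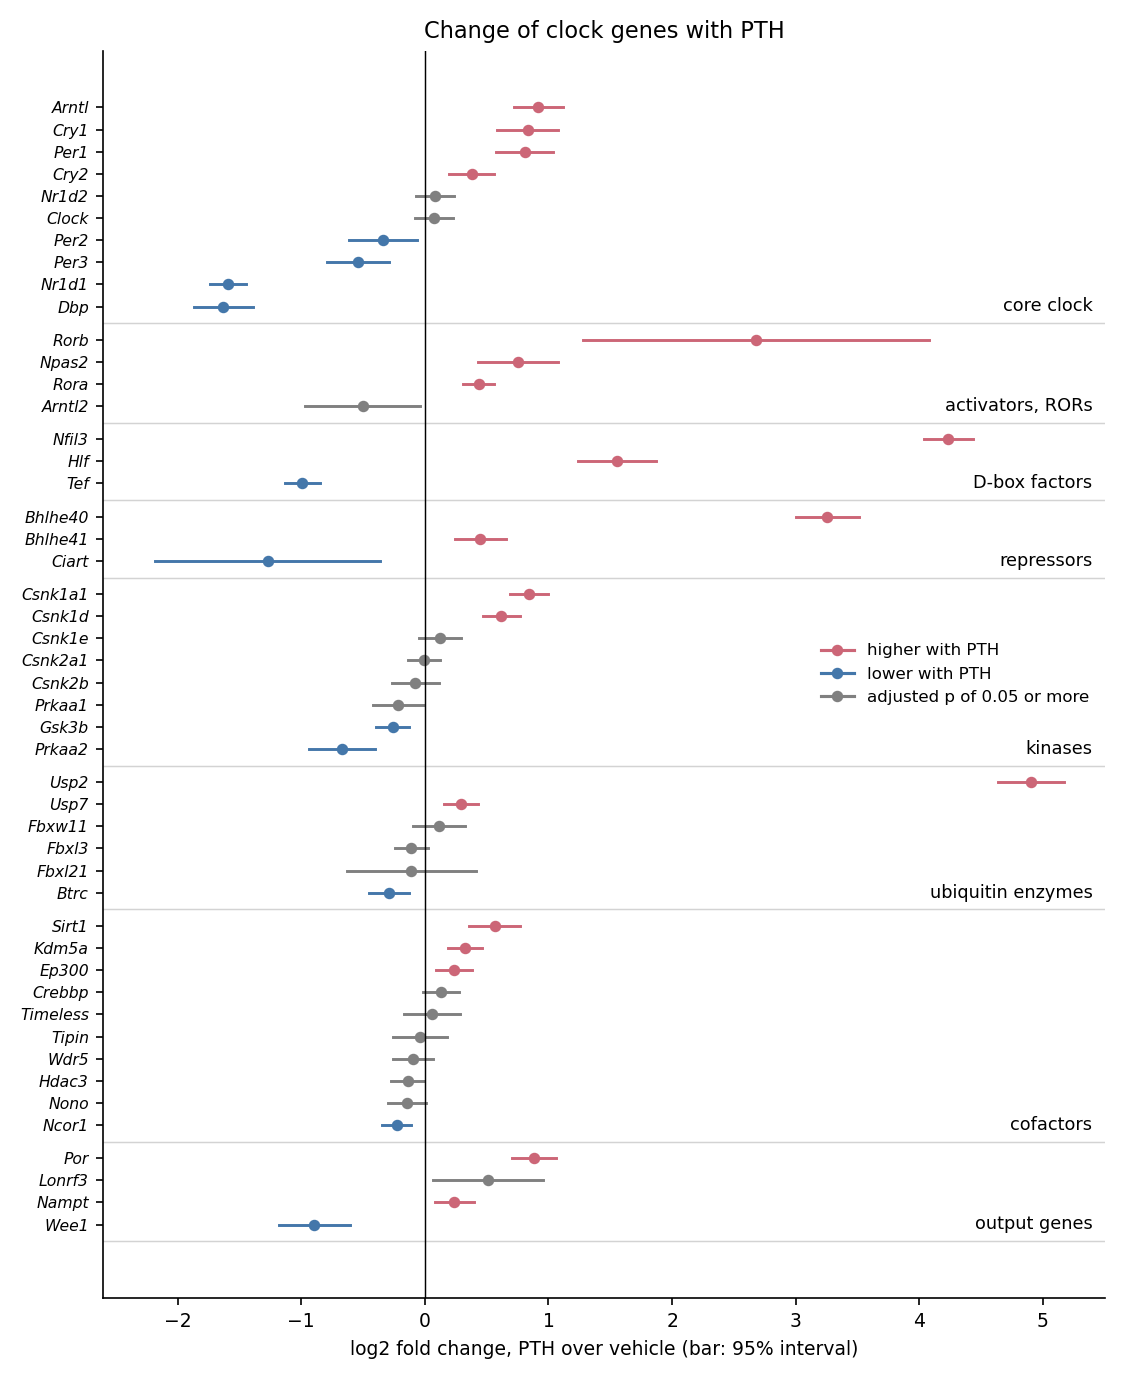
Log2 fold change (PTH over vehicle, edgeR) of the core clock genes and of further clock genes, grouped by role, with 95% intervals. The core members lie between −1.63 (Dbp) and 0.92 (Arntl), and the largest values outside them are those of Usp2 (4.90), Nfil3 (4.23) and Bhlhe40 (3.26).

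Genes that act on the clock proteins moved in both directions, as did all genes tested (23.3% higher and 22.5% lower). The test was passed by 4 of 8 kinases, 3 of 6 ubiquitin ligases and deubiquitinases and 4 of 10 cofactors. These shares lay near the 45.8% of all genes tested, so the counts alone do not set these lists apart. Of 8 kinases, 2 were higher and 2 lower, with Csnk1a1, a casein kinase, at a log2 fold change of 0.84 and Prkaa2, a catalytic subunit of AMPK, at −0.67 as the largest in each direction. Of 6 ubiquitin ligases and deubiquitinases, 2 were higher and 1 lower. Usp2, a deubiquitinase reported to act on clock proteins and itself a clock output, was at 5.04, 7.26, 6.95 and 7.88 CPM in vehicle and 209, 190, 203 and 211 CPM in PTH cultures, a 30.0-fold rise (edgeR adjusted p = 2.82e-11). Btrc, a ligase subunit for PER proteins, fell by 0.29 on the log2 scale. Among 10 cofactors, 3 were higher and 1 lower, led by Sirt1 (0.56) and Ncor1 (−0.23), the corepressor used by REV-ERB. Of 5 output genes, 3 were higher and 1 lower. Wee1, a kinase that restrains entry into mitosis, fell from 10.6 to 11.7 CPM in vehicle to 4.91 to 7.44 CPM with PTH.

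**Figure D5:**
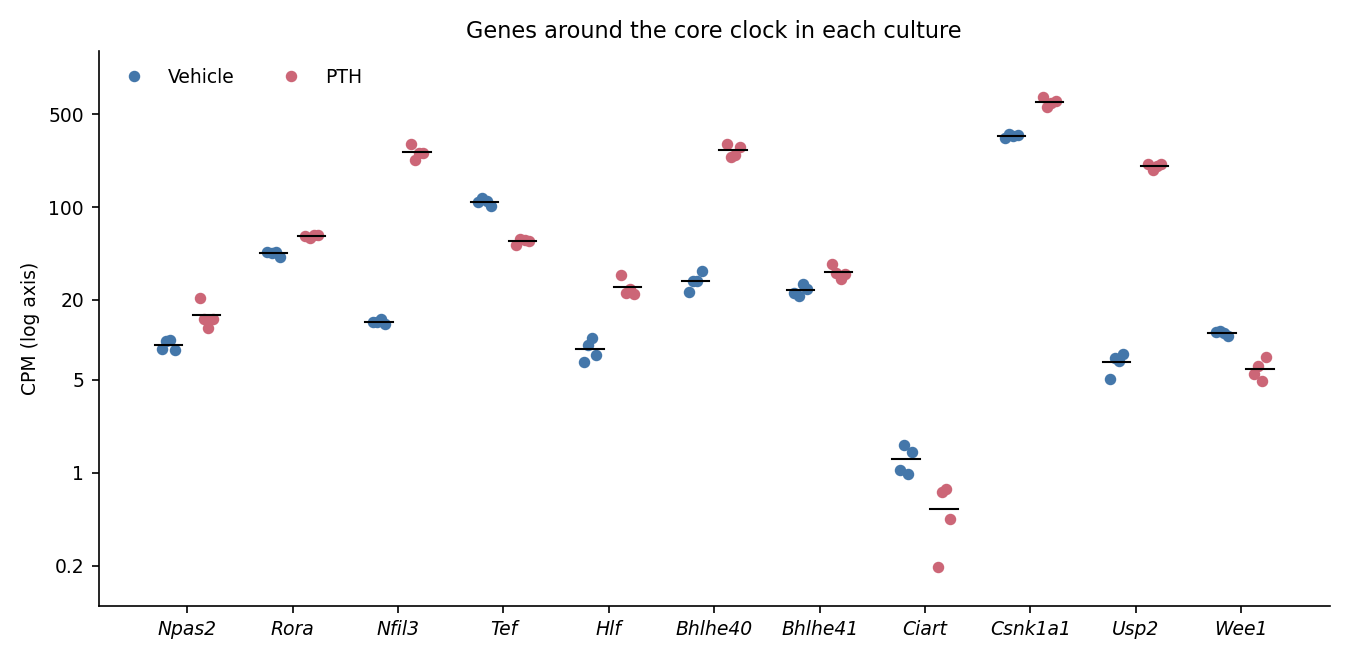
CPM (log axis) of 11 further clock genes in each vehicle and PTH culture, with bars at the treatment means. Nfil3, Bhlhe40 and Usp2 are separated by the widest gaps, and Tef, Ciart and Wee1 are the genes shown that are lower with PTH.

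Over the 8 libraries, the further clock genes with the pattern most like that of a member were Tef for Dbp (Pearson r of log2 CPM 0.99), Tef for Nr1d1 (0.99) and Bhlhe40 for Arntl (0.99). These values describe 2 treatments of 4 libraries and are made mostly by the difference between them. Among cultures of the same treatment, after removal of the treatment means, the r of the 45 pairs of members ran from −0.94 to 0.81 with a median of 0.21, and the lowest adjusted p over the 45 pairs was 0.156 (exact permutation).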

How the data were processed

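RNA-seq was performed on poly(A) RNA of 8 cultures, 4 per treatment, grouped by their labels. The authors aligned reads with HISAT2 to GRCm38 (mm10) and assembled transcripts with StringTie, and the deposited table holds gene counts estimated from transcript coverage, not normalized. The script's read length, the annotation version and the strand setting are not given in the sources used here. A read length other than the true 150 bases would scale all counts alike.

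Counts were fitted over all genes with edgeR 4.0.16 (R 4.3.3) by TMM normalization, filterByExpr (minimum count 10, minimum total 15) and the quasi-likelihood test with treatment only, with Benjamini-Hochberg adjustment over 16736 genes and a threshold of 0.05. CPM were computed with TMM library sizes. Two-sided exact permutation tests used log2(CPM + 0.1) or log2 ratios (SciPy 1.17.1). Exon lengths, with all annotated exons of a gene merged, and positions were taken from GENCODE M21, and promoter windows from RefSeq. Depth was 33605610 to 56090654 counts per library, and rows without a symbol held 0.0028% of counts. DESeq2 1.42.0, other normalization, filtering, length, block and leave-one-out fits were alternatives. The fitting procedure was also tested on artificial counts.

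All 10 members are named, with, of each further clock list, the gene with the largest rise and the largest fall past the threshold, genes that overlap a member, and the 3 genes most like a member. One gene that this rule names is not reported here. Npas2, Rora, Hlf and Bhlhe41 were named after their values were seen. Members and lists were chosen with earlier results of these data known.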

Additional observations from a re-analysis of the deposited data

Results flagged for a closer look

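In 3 of 110 groups of 4 cultures examined (2.73%), 1 culture lay farther from the others than Dixon's 95% critical value for the gap over the range allows. Chance alone flags about 5% of such groups. Per2 was at 5.44 CPM in PTH replicate 1, against 6.97 to 7.31 CPM in the other PTH cultures. Nr1d2 was at 60.5 CPM in that same culture, against 67.0 to 68.3 CPM in the others. Fbxw11, a ubiquitin ligase subunit for PER proteins, was at 77.1 CPM in Vehicle replicate 4, against 88.5 to 89.3 CPM in the other vehicle cultures.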

How the results depend on the processing

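None of the 150 recomputed fold changes of members reversed direction, and 8 lost their call. The 90 recomputed mean differences of members and 50 recomputed ratio differences also held 0 reversals. Where the treatments do not overlap, leaving out 1 culture cannot reverse a mean difference. The other 64 recomputed values are counts of calls, which have no direction to reverse. In the edgeR and DESeq2 fits, Per2 was called in 7 of 15 other settings (log2 fold change −0.38 to −0.25, adjusted p 0.0375 to 0.104). Per1, Per3, Cry1, Cry2, Arntl, Nr1d1 and Dbp were called in 15 of 15, and Clock and Nr1d2 in 0 of 15. Requiring an absolute log2 fold change of 1 or more left 0 members higher and 2 lower, and 6 further clock genes higher and 1 lower. Leaving out 1 replicate at a time gave 4 members higher and 3 to 4 lower, and 16 to 18 further clock genes higher and 6 to 9 lower. With the replicate number as a block, 4 members were higher and 3 lower (17 and 8 further clock genes), and Per2 lost its call (adjusted p = 0.0528). Same-numbered libraries did not deviate together (r −0.04 to 0.03), so the numbers were not taken to pair the samples. Tested within same-numbered pairs, which cannot give an exact permutation p below 0.125, the ratios Per1/Per2 (1.15), Nr1d1/Nr1d2 (−1.67), Arntl/Clock (0.85) and Dbp/Arntl (−2.55) had p = 0.125 and Cry1/Cry2 (0.45) had p = 0.25. A pseudocount of 1 left each ratio on the same side of 0.05, and leaving out 1 culture, recomputed as a value with no test, gave 1.07 to 1.24, −1.70 to −1.64, 0.80 to 0.90, −2.67 to −2.45 and 0.32 to 0.59 in that order. One sampling time was measured, so a shift in clock phase, a change in amplitude and a change in mean level cannot be told apart.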

Other observations

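Among cultures of the same treatment, the closest relation between members was that of Arntl and Nr1d2, which varied in opposite directions over 8 cultures (Pearson r = −0.94, exact permutation p = 0.00347, adjusted p = 0.156 over 45 pairs). Spearman's rho was −0.95 (exact permutation p = 0.00694, adjusted p = 0.312), and r was −0.95 without the 2 cultures farthest on the first gene. The adjusted values do not pass 0.05, and this test was added after the data were seen.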
